A study of Mus musculus with 8 samples.

Results

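The epicardial marker genes described here are *Wt1*, *Tcf21*, *Tbx18*, *Twist1*, *Aldh1a2*, *Upk3b*, *Upk1b*, *Msln*, *Krt19* and *Krt8*, 10 of the 21951 protein-coding genes of the mouse annotation. They were named as markers with earlier results of these data known, and the rule that assigned peaks to them used no measured value. A peak was given to a gene when the gene's transcription start site (TSS) was the nearest protein-coding TSS, or when the peak lay within 10 kb of the gene body. This assigned 14 of the 15736 differentially accessible peaks to 9 of the 10 genes, 7 gained and 7 lost. In all 14 cases the marker gene's TSS was also the nearest protein-coding TSS.

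The peaks came from ATAC-seq, in which the transposase Tn5 cuts and tags open chromatin, on hearts of mouse embryos at E10.5. In *Chd4-CMko* hearts, floxed alleles of *Chd4*, which encodes an ATPase of the NuRD chromatin remodeling complex, were deleted with a *Tnnt2* Cre driver that is active in cardiomyocytes. They were compared with hearts labelled WT, described in the methods as control littermates, whose floxed and Cre alleles are not given for this assay, with 4 samples of each genotype. Each sample pooled several hearts, given as 4 in the sample labels and as 3 in the series description. The paper's methods also give 3 for E10.5 hearts. From each pool, 40000 viable cells entered the assay. The whole heart was dissociated, so the epicardium entered as part of a mixture. Recombination of *Chd4* in epicardial cells was not measured here.

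The epicardium is the mesothelial sheet that spreads over the heart from the proepicardial organ. It secretes retinoic acid and growth factors to the myocardium, and some of its cells undergo epithelial-to-mesenchymal transition to give fibroblasts and vascular smooth muscle. WT1, TCF21 and TBX18 are its classical transcription factors, whereas keratins, uroplakins and mesothelin mark its epithelial character.

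The data comprised a list of 12991 gained peaks, higher in *Chd4-CMko* (82.6% of both lists), and a list of 2745 lost peaks, higher in WT. Peaks were of nearly uniform width and carried 1 score for the 4 samples together, a deposited value without a stated scale. Scores were therefore ranked only within a list, as the percentage of its peaks that scored lower, with ties split evenly. The median score was 62.5 (range 19.0 to 696.5) for gained and 36.8 (14.3 to 1139.0) for lost peaks. The methods state a sequencing depth for the samples in common, but the reads obtained from each are not in the lists and no value per sample was given, so the spread between replicates could not be set beside any score and no test between genotypes was possible. Only peaks with a fold change of at least 2 were listed. An unlisted promoter may thus be open or closed in both genotypes, or differ between them by less than that limit. For the same reason the epicardial label could not be checked as a level of accessibility.

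Gained peaks were assigned to 6 of the 10 marker genes, *Twist1*, *Aldh1a2*, *Upk3b*, *Upk1b*, *Krt19* and *Krt8* (60%, Wilson 95% interval 31.3 to 83.2), beside a background of 37.4% of all protein-coding genes under the same rule. Lost peaks were assigned to 5, *Wt1*, *Tcf21*, *Tbx18*, *Twist1* and *Aldh1a2* (50%, interval 23.7 to 76.3), beside 10.8% of all genes. The lost count fell from 5 to 2 genes, *Wt1* and *Aldh1a2*, when only peaks within 10 kb of a gene body or within 50 kb of the TSS were taken, beside 7.30% and 7.06% of all genes. *Tbx18*, *Twist1*, *Tcf21* and *Aldh1a2* have a wider stretch in which their TSS is the nearest than 95.4%, 88.8%, 85.0% and 82.1% of genes. By the main rule the share in the marker genes was above the background in both lists, and for gained peaks the background lay inside the interval. The intervals cover counting error over 10 genes named with earlier results in view, so these shares are a description and no test. In a bulk sample, fewer or more cells of a type cannot be told apart from less or more accessibility per cell.

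The genes fell into 4 patterns, which are a description after the peaks were seen and not a test of any class of protein. *Wt1*, *Tcf21* and *Tbx18* had lost peaks and no gained peak (30%, interval 10.8 to 60.3), as did 4.41% of all genes. Of these, *Wt1* alone had its lost peak within 10 kb of the gene body. The peaks of *Tcf21* and *Tbx18* lay more than 100 kb away and rested on the nearest TSS. *Upk3b*, *Upk1b*, *Krt19* and *Krt8* had gained peaks and no lost peak (40%, interval 16.8 to 68.7), a share near the 31.0% of all genes. *Aldh1a2* and *Twist1* had both kinds, which 6.36% of all genes did. *Msln* had neither, as did 58.2% of all genes.

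**Figure D1:**
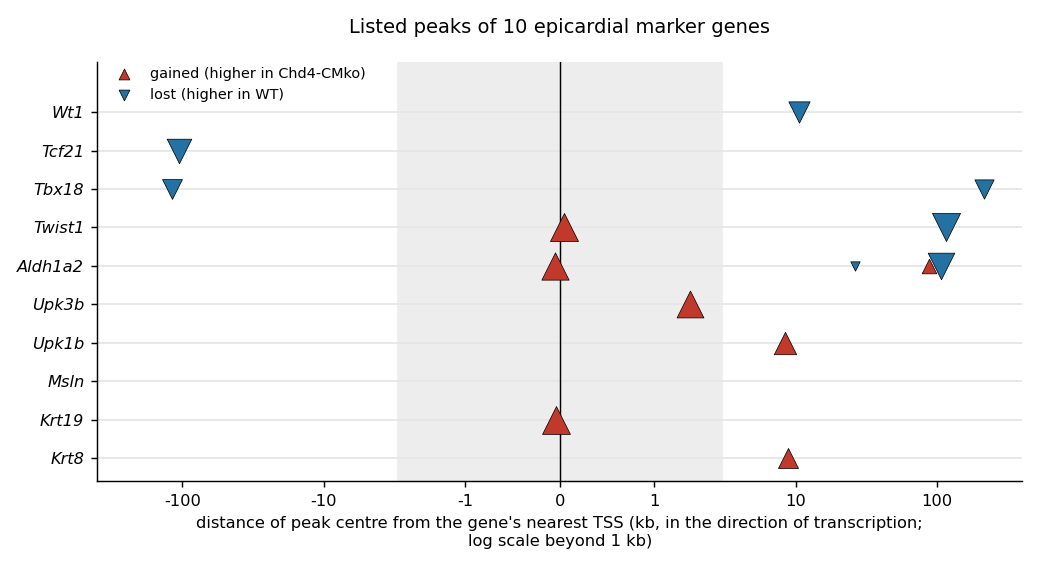
Position of the 14 peaks relative to the nearest TSS of their own gene (x axis, kb in the direction of transcription, linear within 1 kb and logarithmic beyond), with 1 row for each gene. Upward triangles are gained and downward triangles lost peaks, the size grows with the score percentile within the list, and the shaded band marks 3 kb on either side of the TSS. The 4 peaks inside the band were all gained, and the 7 lost peaks lay 10632 bp or more from the TSS.

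Promoters showed a single direction. Gained promoter peaks, within 3 kb of a TSS of the gene, were present at *Twist1*, *Aldh1a2*, *Krt19* and *Upk3b*, 4 of 10 genes (40%, interval 16.8 to 68.7), beside 12.4% of all genes. At 3 of these, *Twist1*, *Aldh1a2* and *Krt19*, the peak covered the TSS itself, beside 3.94% of all genes. None of the 10 had a lost promoter peak (0%, interval up to 27.8), beside 1.24% of all genes, or a lost peak over a TSS, beside 0.146%, so with 10 genes a count of 0 does not separate them from the background. The 4 gained promoter peaks scored 180.5 to 333.5, with a median percentile of 94.6, whereas the median percentile was 78.6 for all 2995 gained promoter peaks and 87.3 for the gained peaks over a TSS. The 3 gained peaks away from promoters scored 36.0 to 73.5, with a median percentile of 44.9.

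**Figure D2:**
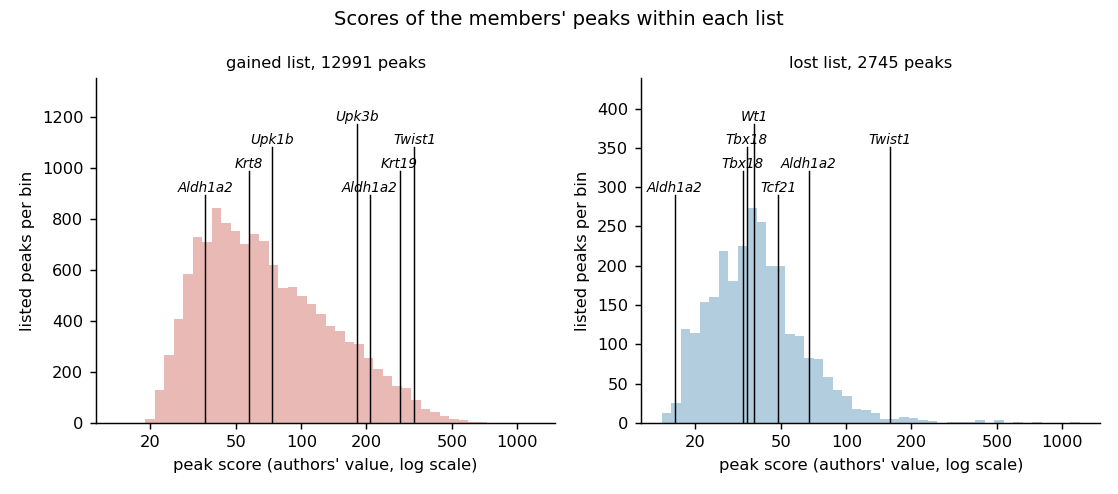
Distribution of the authors' peak scores (x axis, logarithmic) over the 12991 gained peaks (left, red) and 2745 lost peaks (right, blue), as peaks per bin, with a black line at the score of each marker-gene peak. The 4 promoter peaks of *Upk3b*, *Aldh1a2*, *Krt19* and *Twist1* sat at 180.5 or above in the gained list, and 5 of the 7 lost peaks sat between 33.1 and 67.0. Whether the 2 panels share a scale is not stated.

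*Wt1* encodes a zinc finger transcription factor needed for the epicardium and for epicardial epithelial-to-mesenchymal transition. Its gene (ENSMUSG00000016458.14, chr2:105126529-105173616, plus strand, mm10) held 1 lost peak, at chr2:105141440-105141590 in intron 3 of a transcript of 10 exons. The peak lay 10632 bp downstream of the nearest of the 8 annotated *Wt1* TSSs. Its score of 37.5 was close to the middle of the lost list (percentile 51.7). The nearest gained peak was 124179 bp from the gene, and 73.2% of all genes were closer to one. The sequence is shown on the strand of the gene because it is the single listed peak inside *Wt1*, *Tcf21* or *Tbx18*. None of the 11 motif strings described below was found in it, so it has no capitals.
Wt1 intron 3, lost: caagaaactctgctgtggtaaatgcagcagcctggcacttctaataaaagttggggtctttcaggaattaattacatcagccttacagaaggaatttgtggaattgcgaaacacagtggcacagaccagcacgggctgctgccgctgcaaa

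*Tcf21* encodes a basic helix-loop-helix factor of the progenitors of cardiac fibroblasts. The gene (ENSMUSG00000045680.8, chr10:22817281-22820174, minus strand) had 1 lost peak with a score of 48.5 (percentile 72.9) at chr10:22926289-22926439. The peak was intergenic, upstream of the gene and 106115 bp from it. The nearest gained peak was 117067 bp from the gene, on the downstream side.

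*Tbx18* encodes a T-box factor of the proepicardium and epicardium. The gene (ENSMUSG00000032419.8, chr9:87702800-87731260, minus strand) had 2 lost peaks, which 2.23% of all genes had or exceeded. A peak upstream, at chr9:87849055-87849205, lay 117795 bp from the gene with a score of 34.6 (percentile 43.8). The other, at chr9:87517499-87517649, lay 185151 bp beyond the 3′ end with a score of 33.1 (percentile 40.2). Both were intergenic and of middling score within the list. The stretch of chromosome in which a *Tbx18* TSS is the nearest protein-coding TSS spans 536 kb, larger than for 95.4% of genes, beside a median of 45.1 kb. It was 192 kb for *Tcf21* and 84.3 kb for *Wt1*. Of all genes, 26% were closer to a lost peak than *Tbx18* and 24% were closer than *Tcf21*. The nearest gained peak was 361098 bp from *Tbx18*, and 88.2% of all genes were closer to one. The downstream peak is shown on the strand of the gene because it alone among the 14 held the GATA string, in capitals as its reverse complement.
Tbx18 downstream, lost: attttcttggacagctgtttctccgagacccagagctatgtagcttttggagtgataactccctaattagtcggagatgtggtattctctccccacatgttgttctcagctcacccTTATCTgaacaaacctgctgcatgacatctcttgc

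*Twist1* encodes a basic helix-loop-helix factor that drives epithelial-to-mesenchymal transition and acts in cushion and epicardium-derived mesenchyme. The gene (ENSMUSG00000035799.6, chr12:33957671-33959829, plus strand) had the top-scoring gained peak of the 10 genes, 333.5 (percentile 98.4), at chr12:33957642-33957792. It covered the TSS and 122 bases of the untranslated part of exon 1 of 2. Its GC content was 76.2%, higher than in 95.8% of gained peaks, with 20 CpG dinucleotides. A lost peak with a score of 159.1 (percentile 98.7) lay beyond the 3′ end, in an intron of *Hdac9*, the neighboring gene for a class IIa histone deacetylase. This peak lay more than 100 kb from the gene, 100% of it was masked as repeat in the genome, and its GC content of 15.9% was at percentile 0.0182 of the lost list. The part of the repeat in its score was not tested.

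The promoter of *Twist1* is shown because its gained peak scored highest of the 10 genes. The 250 bases before the TSS, chr12:33957421-33957670 on the plus strand from RefSeq (GRCm38.p6), overlapped the gained peak by their last 29 bases and had a GC content of 62.4%. Capitals mark, in order, a WT1/EGR-type string, CCAAT, and the reverse complement of the SP/KLF string. None of these lies in the 29 bases inside the gained peak. The strings counted below for the *Twist1* peak are therefore other matches.
Twist1 promoter: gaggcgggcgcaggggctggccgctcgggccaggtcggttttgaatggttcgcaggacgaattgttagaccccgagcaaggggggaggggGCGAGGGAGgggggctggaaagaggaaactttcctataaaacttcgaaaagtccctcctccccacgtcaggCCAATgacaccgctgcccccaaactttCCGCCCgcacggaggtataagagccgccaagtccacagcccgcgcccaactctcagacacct

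*Aldh1a2* encodes the retinaldehyde dehydrogenase through which the epicardium makes retinoic acid. The gene (ENSMUSG00000013584.5, chr9:71215789-71296243, plus strand) had 4 peaks, 2 gained and 2 lost, a total that 5.41% of all genes reached. The gained promoter peak at chr9:71215662-71215812 scored 207.5 (percentile 92.2) and covered the TSS with 24 bases of exon 1 of 14. The other gained peak, at chr9:71303703-71303853, scored 36.0 (percentile 18.5) and lay 7460 bp beyond the 3′ end. A lost peak in intron 1, at chr9:71242042-71242192 and 26328 bp from the TSS, scored 16.1 and was among the weakest of its list (percentile 0.801). The last lost peak, at chr9:71321977-71322127, scored 67.0 (percentile 87.5) and lay 25734 bp beyond the 3′ end. Gained and lost peaks therefore alternated along the locus, and the pair beyond the 3′ end were 18274 bp apart. The promoter and intron 1 peaks are shown because they had opposite directions and shared a string, the octamer ATGCAAAT.
Aldh1a2 promoter, gained (upstream bases, chr9:71215662-71215788): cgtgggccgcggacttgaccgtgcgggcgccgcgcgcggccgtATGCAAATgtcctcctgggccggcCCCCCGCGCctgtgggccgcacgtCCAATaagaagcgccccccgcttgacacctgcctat
Aldh1a2 intron 1, lost: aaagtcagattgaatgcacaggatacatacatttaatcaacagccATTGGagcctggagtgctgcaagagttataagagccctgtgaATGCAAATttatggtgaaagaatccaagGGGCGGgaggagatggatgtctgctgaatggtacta
Both are on the plus strand, and capitals mark the octamer, the NFY string CCAAT or its reverse, and a WT1/EGR-type string in the promoter or the SP/KLF string in the intron. The octamer was searched for after these sequences had been read. It was present in 2.76% of gained peaks (359) and 0.401% of lost peaks (11), and in no other peak of the 10 genes. The promoter peak had 23 CpG dinucleotides and a GC content of 73.5%, whereas the intronic peak had 1 CpG and 43.7%.

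*Upk3b* encodes a uroplakin of mesothelium and urothelium. The gene (ENSMUSG00000042985.7, chr5:136038496-136046487, plus strand) had 1 gained peak with a score of 180.5 (percentile 89.2) at chr5:136040209-136040359. It lay 1788 bp downstream of the TSS and took in 31 bases of exon 3 of 6, which is coding. Thus the promoter class here rested on the 3 kb window and not on overlap with the TSS. *Upk1b* encodes the tetraspanin partner of uroplakin 3. The gene (ENSMUSG00000049436.5, chr16:38773184-38800328, minus strand) had 1 gained peak with a score of 73.5 (percentile 58.6) in intron 1 at chr16:38791829-38791979, 8424 bp downstream of the nearest TSS. Both peaks had a GC content of 60.9%. They are shown on the strand of each gene because they are the 2 listed peaks within uroplakin marker genes. Capitals mark NFY strings, which both held, and the SP/KLF strings found in *Upk1b* alone of the pair.
Upk3b exon 3 and intron, gained: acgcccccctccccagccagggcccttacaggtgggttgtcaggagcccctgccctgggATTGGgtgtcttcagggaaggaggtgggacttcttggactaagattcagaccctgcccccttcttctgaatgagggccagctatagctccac
Upk1b intron 1, gained: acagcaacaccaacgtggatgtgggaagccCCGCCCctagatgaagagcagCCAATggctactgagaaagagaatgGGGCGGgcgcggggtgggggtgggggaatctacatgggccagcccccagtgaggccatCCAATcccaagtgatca

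*Msln*, for the mesothelial surface protein mesothelin, was the single gene with no assigned peak. The gene (ENSMUSG00000063011.7, chr17:25748613-25754378, minus strand) was 41412 bp from the nearest gained peak (chr17:25795790-25795940, score 179.0), whose nearest TSS was that of *AC134908.4*. The median distance over genes was 38113 bp, and 51.6% of genes were closer to a gained peak than *Msln*. Its nearest lost peak was 347221 bp away, beside a median of 321235 bp.

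*Krt19* and *Krt8* encode a type I and a type II keratin of simple epithelia. *Krt19* (ENSMUSG00000020911.14, chr11:100140810-100148665, minus strand) had 1 gained peak with a score of 285.0 (percentile 96.9) at chr11:100146088-100146238, over a TSS and 33 bases of exon 1 of 6. Its GC content of 56.3% was the lowest of the 4 gained promoter peaks, with 4 CpG dinucleotides. *Krt8* (ENSMUSG00000049382.10, chr15:101996698-102004482, minus strand) had 1 gained peak with a score of 57.0 (percentile 44.9) at chr15:101995579-101995729, 969 bp beyond its 3′ end. Both genes were more than 240 kb from a lost peak, at 242478 bp for *Krt19* and 292379 bp for *Krt8*. The peaks are shown on the strand of each gene, with the SP/KLF string of *Krt19* and the ETS string ACAGGAAGT of *Krt8* in capitals.
Krt19 promoter, gained (upstream bases, chr11:100146121-100146238): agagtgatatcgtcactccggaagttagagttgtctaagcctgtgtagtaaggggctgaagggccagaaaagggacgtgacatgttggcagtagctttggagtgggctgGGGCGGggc
Krt8 downstream, gained: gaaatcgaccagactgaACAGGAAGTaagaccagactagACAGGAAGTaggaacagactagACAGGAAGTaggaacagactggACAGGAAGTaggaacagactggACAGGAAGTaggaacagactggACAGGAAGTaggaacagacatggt
The *Krt8* peak was a tandem array in which the ETS string recurred 6 times, starting at bases 18, 40, 62, 84, 106 and 128. This string was added after the sequence had been read. It occurred at least once in 109 gained peaks (0.839%) and 17 lost peaks (0.619%), and the *Krt8* peak alone held 6. The array was not masked as repeat in the genome.

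**Figure D3:**
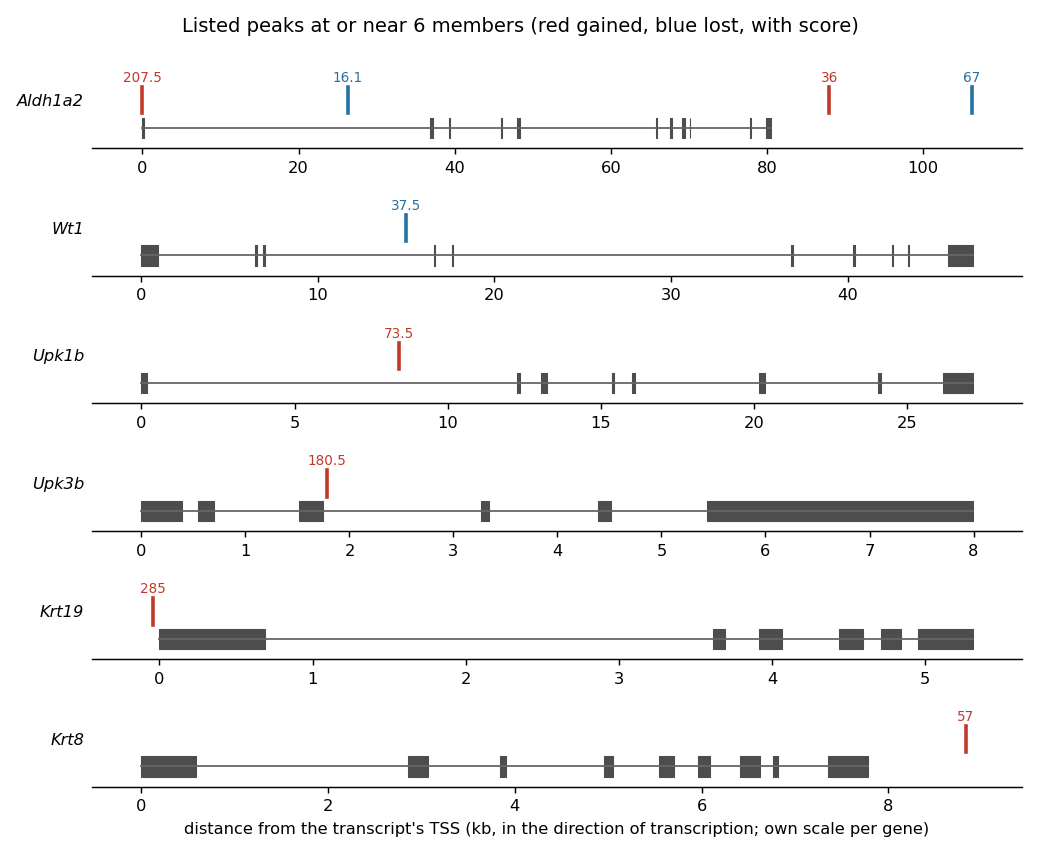
Maps of 6 of the genes, each to its own scale in kb from the TSS of 1 transcript, with exons as grey blocks and peaks as vertical lines (red gained, blue lost) labelled with their scores. At *Aldh1a2* the gained and lost peaks alternate from the promoter (207.5) to beyond the 3′ end (67.0), whereas the other 5 genes have 1 peak each. The *Wt1* peak (37.5) appears farther from the start here than its distance to the nearest TSS, because the map uses the TSS of the transcript drawn.

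The 10 kb window added no peak beyond the nearest-TSS clause. The peak just inside it was the gained one 7460 bp beyond *Aldh1a2*. Just outside were a gained peak 13659 bp from *Krt8* (chr15:102018141-102018291, score 207.0), which belonged to *Krt18*, the keratin 8 partner, and 2 peaks around *Upk1b*. Of these, the gained peak (106.5) was 17054 bp and the lost peak (50.9) 20105 bp from *Upk1b*. Of the 14 peaks, 9 lay within 10 kb of a gene body, and 7 of those were gained. The 5 others were lost peaks between 25734 and 185151 bp from their gene, so most lost assignments rested on the nearest TSS alone.

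Gained and lost peaks of the marker genes differed in where they lay and in base composition. The 7 gained peaks had a median distance of 1788 bp to the TSS, beside 15466 bp for all gained peaks. The 7 lost peaks had a median of 106263 bp, beside 25798 bp for all lost peaks. The median GC content was 60.9% in the gained peaks (47.7 to 76.2) and 47.0% in the lost peaks (15.9 to 64.9), and the 2 ranges overlapped. Over the full lists it was 55.0% and 50.3%. Gained promoter peaks had a median of 63.6% in the full list and 67.2% at the marker genes, whereas the 3 other gained peaks had 51.7%. Thus GC content and the promoter class moved together, and their parts in the difference between the lists were not separated. CpG counts ran from 1 to 23 in the gained (median 4) and from 0 to 3 in the lost peaks (median 1), beside a median of 2 in each full list. The high end of the gained peaks, 23 and 20, came from the peaks over the TSSs of *Aldh1a2* and *Twist1*. Among the lost peaks, *Twist1* set the low end of GC content (15.9%, fully masked as repeat), and the peak past the 3′ end of *Aldh1a2* the high end (64.9%, above 98.8% of its list).

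**Figure D4:**
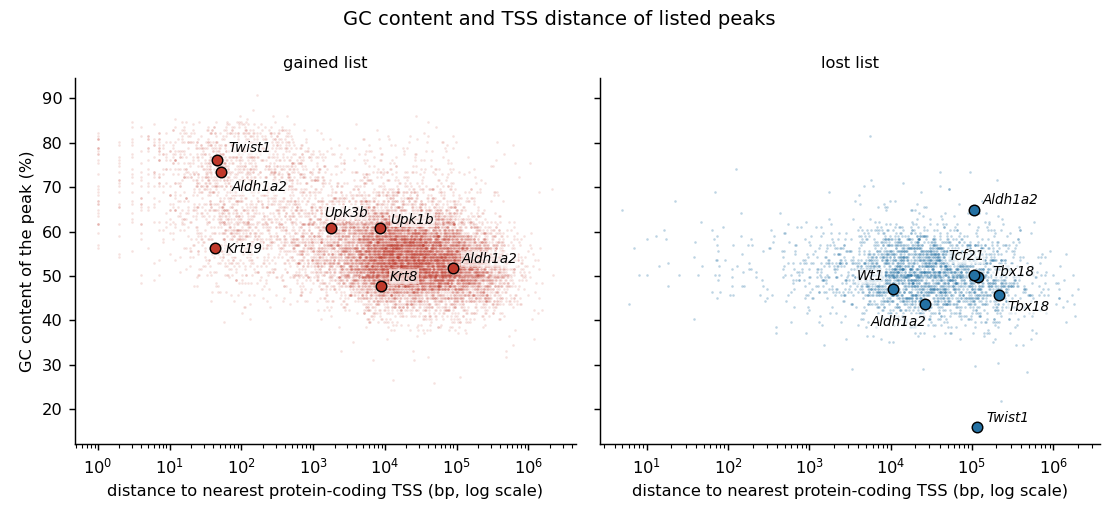
GC content of each peak (y axis, %) against the distance of its center to the nearest protein-coding TSS (x axis, bp, logarithmic), for all gained peaks (left) and all lost peaks (right) as small dots, with the marker-gene peaks outlined and named. *Twist1* and *Aldh1a2* sit in the GC-rich group at the TSS, and *Krt19* lies below it at 56.3%.

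The 14 peaks were searched on both strands for 11 strings. They stand for TEAD (GGAATG) and GATA factors (AGATAA), NFY (CCAAT), SP/KLF (GGGCGG), AP-1 (TGANTCA), the nuclear receptor half-site (AGGTCA), T-box (AGGTGTGA), the WT1/EGR type (GCGNGGGNG), SOX (CTTTGTT), MEF2 and the E-box (CANNTG, left in lower case above). The WT1/EGR-type and SP/KLF strings can overlap each other. Among the 7 gained peaks, NFY strings were found in 3 (*Aldh1a2* promoter, *Upk3b*, *Upk1b*), beside 29.3% of all gained peaks. SP/KLF strings were in 3 (*Twist1*, *Krt19*, *Upk1b*), beside 22.5%. WT1/EGR-type strings were in 2, the promoter peaks of *Aldh1a2* and *Twist1*, beside 6.51% of all gained peaks, 17.5% of gained promoter peaks and 24.7% of gained peaks over a TSS. E-boxes were in 4 of 7, beside 55.0%. Among the 7 lost peaks, E-boxes were in 3 (55.9% of all lost peaks), NFY strings in 2 (12.4%), and GATA (12.2%), SP/KLF (2.95%) and the nuclear receptor half-site (8.96%) in 1 each. The TEAD, AP-1, MEF2, T-box and SOX strings were found in none of the 14 peaks. The TEAD string was in 11.4% of all gained and 18.2% of all lost peaks, and AP-1 in 5.08% and 9%. MEF2 was in 3.86% and 3.1%, SOX in 1.98% and 5.28%, and T-box in 1.28% and 0.291%. A string is a match of letters and not a bound site, and counts of 0 to 4 in 7 peaks do not separate these genes from their lists.

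Promoter windows of 300 bases from RefSeq (GRCm38.p6), from 250 before to 50 after the start, matched 6 of the 10 genes. WT1/EGR-type strings were in the windows of *Aldh1a2*, *Tbx18* and *Twist1*, beside 12.3% of 32851 windows. The same 3 held CCAAT, beside 37.4%. E-boxes were in 4 (72.3% of all windows), GATA strings in 2 (11.2%) and the nuclear receptor half-site in 2 (16.3%). TEAD (14.7%) and SP/KLF strings (35.7%) were in 1 each. The T-box, AP-1, MEF2 and SOX strings were in none of the 6, beside 1.28%, 7.81%, 3.69% and 5.85% of all windows. A count of 0 of 6 does not separate these genes from such shares. The WT1/EGR-type string is rich in G and C, and the windows were not matched for GC content. With 6 windows these counts are a description, and no difference from all windows was tested.

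Genes of related programs were counted by the same rule. Of 20 other epicardial and mesothelial genes, 12 had a gained peak (60%, beside 37.4% of all genes) and 5 a lost peak (25%, beside 10.8%). Gained promoter peaks were found at 4 (20%, beside 12.4%), with scores of 232.5 at *Bnc1*, a mesothelial zinc finger factor, 139.0 at *Rspo1*, a Wnt agonist, 94.5 at *Clu* and 44.0 at *Dmkn*, and lost ones at none, beside 1.24%. Around the keratin 8 partner *Krt18*, the 2 gained peaks scored 207.0 and 141.5. Of 4 other uroplakin genes, *Upk3a* (86.5) and *Upk1a* (84.0) had gained promoter peaks (50%, beside 12.4% of all genes) and none had a lost peak, beside 10.8% of all genes, which with 4 genes does not separate them from the background.

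Of 18 other genes of the retinoic acid pathway, 12 had a gained peak (66.7%, beside 37.4% of all genes) and 1 a lost peak (5.56%, beside 10.8%). Gained promoter peaks were present at 8 (44.4%, beside 12.4%). Among receptors, the top score was 486.5 at *Rarg*, followed by 281.0 at *Rara*, and the *Rxrg* peak was at percentile 37.5 of the list. For binding and uptake, scores were 219.5 at *Crabp1*, 131.5 at *Rbp4* and up to 138.0 at *Stra6*. Among enzymes, *Cyp26b1*, which degrades retinoic acid, had 165.0 and *Aldh1a3*, a further retinaldehyde dehydrogenase, 67.0. *Aldh1a1* had the single lost promoter peak, with a score of 18.3 (percentile 4.13). Of the 3 retinaldehyde dehydrogenase genes, *Aldh1a2* thus had the highest gained promoter score. Of 16 genes of epithelial-to-mesenchymal transition and epicardium-derived cells, 12 had a gained peak (75%, beside 37.4%) and 7 a lost peak (43.8%, beside 10.8%). Of these peaks, 12 of 38 gained and 6 of 10 lost lay more than 100 kb from the TSS. Gained promoter peaks were found at 3 (18.8%, beside 12.4%), *Twist2* (153.0), *Tcf3* (up to 124.5) and *Fn1* (up to 43.5).

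Markers of other cell types in the heart were counted beside these. Gained and lost peaks were assigned to 10 and 1 of 15 cardiomyocyte genes, 8 and 3 of 10 endothelial and endocardial genes, 4 and 0 of 5 smooth muscle genes, 3 and 2 of 5 neural crest genes, 1 and 1 of 5 macrophage genes, and 1 and 0 of 4 liver and foregut genes. Shares above the 37.4% of all genes with a gained peak were thus also found in the first 4 of these lists (60% to 80%). Shares above the 10.8% with a lost peak were also found in the endothelial (30%), neural crest (40%) and macrophage (20%) lists. Gained promoter peaks were at 33.3% of the cardiomyocyte and 30% of the endothelial genes, against 40% of the epicardial marker genes and 12.4% of all genes, and no test of these differences was made. Of 9 erythroid genes, 0 had a gained peak (beside 37.4%) and 6 a lost peak (66.7%, beside 10.8%), among them the embryonic globin genes *Hba-x* and *Hbb-y*, with promoter scores of up to 57.5 and 34.8. The 6 genes stood at 4 loci, since *Hba-a1* shared its peaks with *Hba-x* and *Hbb-bh1* with *Hbb-y*. The cell composition of the samples was not measured, and its part in the counts of the epicardial genes was not tested.

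**Figure D5:**
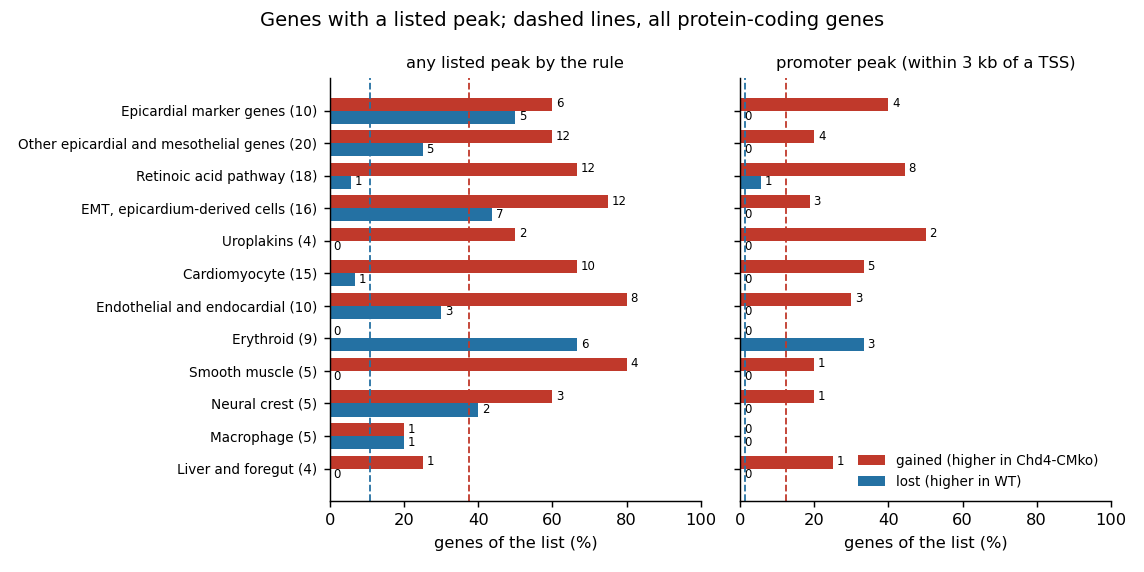
Percentage of the genes in each list (y axis, number of genes in parentheses) with a gained (red) or lost (blue) peak by the assignment rule (left) or within 3 kb of a TSS (right), with the number of genes beside each bar and dashed lines at the share of all protein-coding genes. The epicardial marker genes exceed the lines for gained and lost peaks on the left (6 and 5 of 10), and the erythroid list is the one with lost and no gained peaks (6 and 0 of 9).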

How the data were processed

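ATAC-seq of E10.5 hearts was done by the authors on 4 WT and 4 *Chd4-CMko* samples. Per the labels, reads were aligned to mm10 with BWA-MEM, peaks were called with HOMER (4.10.3) and annotated with ChIP-Seeker (1.20.0), and differential peaks had a fold change of at least 2. Read filters, the handling of duplicates, any Tn5 offset and how samples were combined are not given in the sources used here, and each can change which peaks were listed. The authors deposited 1 peak list per genotype, with a score per peak and no value per sample. The methods state a common depth of sequencing, and the lists hold no read count of a single library.

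Peaks were assigned with GENCODE M21 (TSSs of protein-coding genes) and read from the GRCm38 sequence with Python 3.11.15, pandas 2.3.3 and pysam 0.24.0. The assignment and string searches were tested on simulated peaks. Shares have Wilson 95% intervals. All 10 marker genes are described with each peak, and genes of the related programs where they had a promoter peak, plus *Krt18*. Cell type lists are given by counts. The marker genes, the lists of related programs and cell types, and the strings were chosen with earlier results of these data known. Alternatives varied the window, TSS set, score limit and interval width. The sequence of the lost *Twist1* peak is not reported here.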

Additional observations from a re-analysis of the deposited data

How the results depend on the processing

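The counts of gained peaks moved little. The 7 gained peaks ranged from 5 to 9 over the alternatives, and the genes with one from 5 to 6 (main value 6). The share of all genes moved more, from 24.7% (better-scoring part, 5 marker genes) to 46.1% (25 kb window, 6 marker genes). The genes with a gained promoter peak ranged from 3 (1 kb window, beside 9.23% of all genes) to 6 (10 kb window, beside 21.8%). The count of lost promoter peaks was 0 in all alternatives, beside 0.615% of all genes at 1 kb and 3.37% at 10 kb. With 10 genes a count of 0 does not separate them from such shares. Lost assignments depended on distance. The 7 lost peaks at 5 genes became 2 at 2 genes when only peaks within 10 kb of the gene body were taken (7.30% of all genes), also 2 at 2 genes when the nearest TSS had to be within 50 kb (7.06%), and 3 at 3 genes when TSSs of every gene type competed (8.16%), because non-coding genes lay closer. *Wt1* and the intronic *Aldh1a2* peak were the 2 kept under the first 2 settings. When only the better-scoring part of each list was used, 4 lost peaks were left. The count was also 4 with a common limit of 36.8, which assumes a shared scale that the lists do not state. The median score of 180.5 for gained peaks was at percentile 89.2 of its list, and that of 37.5 for lost peaks at 51.7. Widening each interval around the same center raised the strings found, summed over peaks, from 12 to 25 in gained and from 8 to 18 in lost peaks, and lowered the median GC content of gained peaks to 53.1%. The octamer and ETS strings were chosen after seeing the data. No paired analysis was possible because the lists hold no value per sample, and leaving out each replicate could not be run for the same reason.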
